A study of Mus musculus with 6 samples.

Results

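Ribosome biogenesis factors are the proteins that make, modify, fold and assemble the RNA and protein parts of the ribosome and are not themselves part of the finished particle. The 38 factors described here were listed by gene symbol, with no threshold on a measured value, though earlier results of these data were known when the list was drawn up. All 38 were found among the 17759 genes listed in the 6 RNA-seq libraries. Of these, 3 are box C/D snoRNP core proteins, 3 are H/ACA snoRNP core proteins, 5 are nucleolar scaffold and chaperone proteins and 4 serve RNA polymerase I. Another 9 act on the small subunit, 3 form the PeBoW complex and 11 act on the large subunit.

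Ribosomes are built in the nucleolus. RNA polymerase I transcribes the ribosomal DNA into a long precursor, small nucleolar RNPs (snoRNPs) methylate and pseudouridylate it, and assembly factors cut and fold it into the precursors of both subunits. The transcription factor MYC is a known activator of many of these genes, and a T cell that leaves the resting state is known to enlarge its nucleoli and to make more ribosomes before it divides.

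The cells were regulatory T (Treg) cells of C57BL/6 mice aged 8 weeks, which carry the transcription factor Foxp3 and restrain other T cells. Knockout (KO) mice were MondoAfl/flFoxp3Cre and wild-type (WT) mice were MondoA+/+Foxp3Cre, so both genotypes carried Foxp3Cre, and Cre acts in cells that express Foxp3. MondoA, encoded by Mlxip, is a glucose-sensing transcription factor of the extended MYC and MAX network. The 6 groups were KO and WT natural Treg (nTreg) cells kept resting, KO and WT nTreg cells stimulated for 48 h with coated anti-CD3 at 5 µg/ml, anti-CD28 at 2 µg/ml and IL-2 at 100 U/ml, and KO and WT induced Treg (iTreg) cells. The nTreg cells were sorted as CD4+CD25hiYFP+ from spleen and lymph nodes, and the iTreg cells were polarized for 4 days from naive CD4+YFP-CD44loCD62Lhi T cells. Each genotype and state had 1 library. The labels do not say whether libraries came from separate animals, nor which part of MondoA was flanked.

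The libraries held 9760285 to 10185664 expected counts. Mlxip was lower in each KO library, with 108 CPM (normalised counts per 1000000 counts) in KO and 142 CPM in WT resting cells, 87.1 CPM in KO and 152 CPM in WT stimulated cells, and 70.7 CPM in KO and 167 CPM in WT iTreg cells. Txnip, a known MondoA target, was lower in KO in all 3 states, with log2 folds of -1.89, -2.52 and -2.06. All 7 Treg markers were detected in every library, with a summed level of 3506 to 6920 CPM, and Foxp3 lay between 482 and 744 CPM. The 6 B cell markers summed to 214 CPM in KO and 125 CPM in WT resting cells, and to 27.9 to 77.5 CPM elsewhere. The 6 myeloid markers summed to 38.8 CPM in KO and 48.4 CPM in WT resting cells, against at most 6.33 CPM in the other states. The 2 CD8 markers were highest in iTreg cells, at 183 CPM in KO and 99.6 CPM in WT, against 22.9 to 55.3 CPM in nTreg cells. Transcripts counted in the KO iTreg library were shorter, with a count-weighted mean of 3186 bases against 3773 bases in WT iTreg cells. In the nTreg libraries this mean was 3520 to 3622 bases. The KO over WT log2 fold of Mlxip in iTreg cells was -1.24 as counted and -0.77 with the trend on transcript length removed. In stimulated cells it was -0.80 as counted and -0.78 with that trend removed.

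Most members moved together, so their promoters were searched for the palindromic E-box CACGTG. MYC with its partner MAX is known to bind this string, and MondoA with its partner MLX is known to bind elements built of E-box-like strings. RefSeq windows of GRCm38.p6, from 250 bases before to 50 bases after an annotated start, were held for 33 of the 38 members. The string, which reads alike on both strands, was in the windows of 8 members (24.2%), namely Mybbp1a, Rrn3, Utp20, Wdr43, Tsr1, Pes1, Nop2 and Grwd1. It was in 11.5% of the 10250 genes, members included, that passed the filter on low counts and had a window, and in 8.09% of all 27025 genes with one. The sites outside Rrn3 are shown with up to 12 flanking bases, read 5′ to 3′ on the gene's strand, with the string in capitals, so that their flanks can be compared.
Nop2: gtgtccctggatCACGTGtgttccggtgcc
Grwd1: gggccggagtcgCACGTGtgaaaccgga
Utp20: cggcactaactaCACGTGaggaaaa
Pes1: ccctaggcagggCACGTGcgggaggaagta
Mybbp1a: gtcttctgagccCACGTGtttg
Tsr1: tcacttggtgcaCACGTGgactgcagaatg
Wdr43: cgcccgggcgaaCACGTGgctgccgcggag

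These stretches lie at chr6:125131811-125131840 (plus strand) for Nop2, chr7:45830740-45830767 (minus strand) for Grwd1, chr10:88826765-88826789 (minus strand) for Utp20, and chr11:3963965-3963994 (plus strand) for Pes1. The others lie at chr11:72441355-72441376 (plus strand) for Mybbp1a, chr11:74898092-74898121 (plus strand) for Tsr1 and chr17:71616220-71616249 (plus strand) for Wdr43. Of these strings, that of Nop2 began upstream, at -60 from the annotated start. The rest began after the start, at 2 for Pes1, 17 for Wdr43, 24 for Tsr1, 34 for Grwd1, 37 for Utp20 and 40 for Mybbp1a. Rrn3 was the member with 2 sites, which began at -215 and -48 from its start. Its 250 upstream bases, chr16:13780449-13780698 on the plus strand, are set beside those of Nop58, chr1:59684756-59685005 on the plus strand, the member with the lowest resting KO fold and with no CACGTG in its window.
Rrn3: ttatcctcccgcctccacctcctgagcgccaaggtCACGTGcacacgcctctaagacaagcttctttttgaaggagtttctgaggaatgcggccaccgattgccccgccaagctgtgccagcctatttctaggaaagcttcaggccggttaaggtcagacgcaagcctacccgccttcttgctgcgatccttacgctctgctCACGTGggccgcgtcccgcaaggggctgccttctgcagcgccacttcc
Nop58: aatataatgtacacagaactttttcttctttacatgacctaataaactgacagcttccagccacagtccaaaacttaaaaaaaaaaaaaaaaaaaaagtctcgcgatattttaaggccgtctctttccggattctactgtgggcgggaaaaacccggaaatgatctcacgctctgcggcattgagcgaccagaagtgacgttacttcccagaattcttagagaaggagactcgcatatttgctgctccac

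The 38 transcripts together made up 0.269% of the counts in KO and 0.351% in WT resting cells, 1.01% in KO and 0.911% in WT stimulated cells, and 0.689% in KO and 0.702% in WT iTreg cells. In CPM, scaled by TMM factors, the sums were 2546 in KO and 3411 in WT resting cells, 10470 in KO and 9203 in WT stimulated cells, and 7146 in KO and 6983 in WT iTreg cells. The lowest and the highest sum were thus both in KO libraries, and the WT sums lay between them in both nTreg states. Such values are shares of the RNA sequenced. In bulk samples, fewer cells of a type and less RNA per cell cannot be told apart. Per deposited transcript length, the most abundant members were Npm1, with a mean of 832 FPKM over the 6 libraries, and Fbl, with 166 FPKM. The least abundant were Utp20, with 8.95 FPKM, and Rrp12, with 10.3 FPKM. Ncl, deposited at 8257 bases, had 133 FPKM, though its mean of 1128 CPM was above the 192 CPM of Fbl. All 38 passed the filter on low counts.

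**Figure D1:**
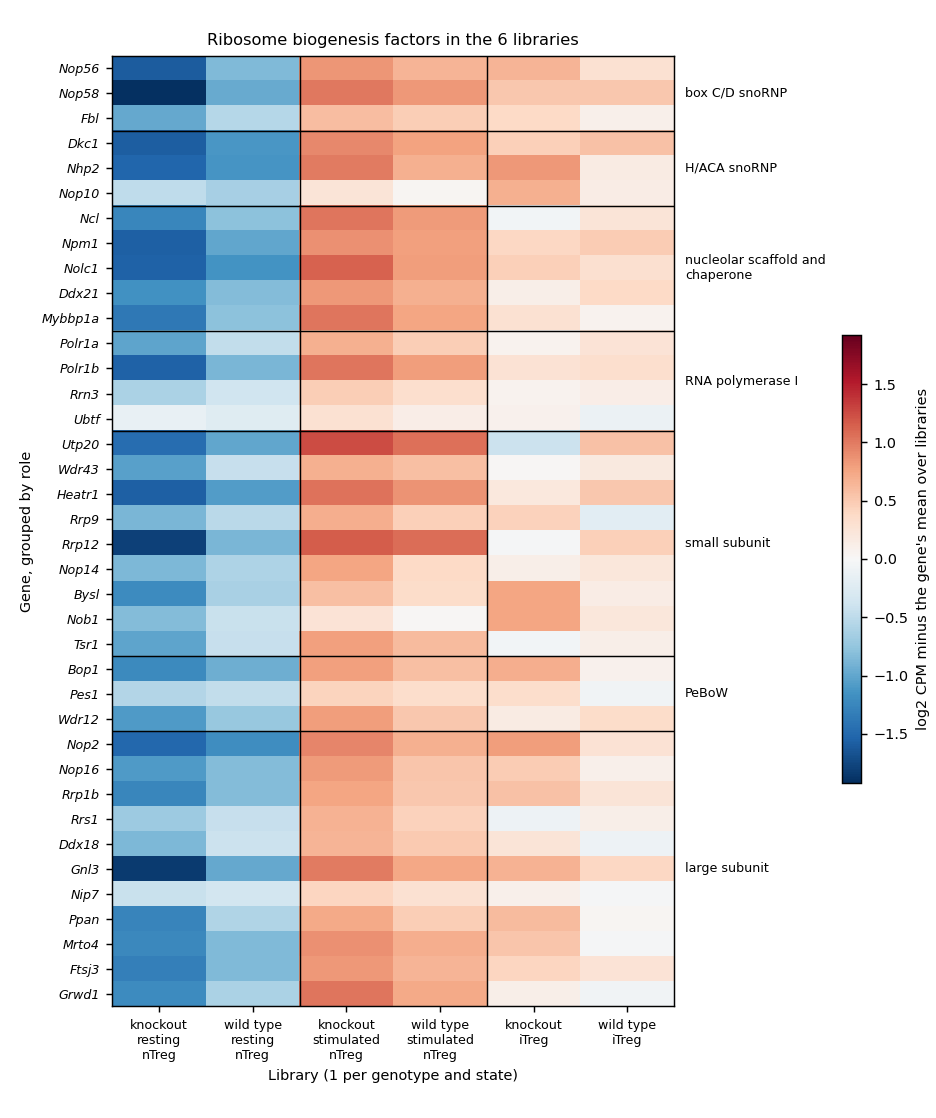
Heat map of the 38 members (rows, grouped by role) in the 6 libraries (columns, 1 library each); colour is log2 CPM minus the gene's mean over the libraries. The resting columns are the lowest for nearly all genes and are lower in KO than in WT for 36 of the 38 members, and the stimulated columns are higher in KO for all 38.

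Stimulation raised nearly the whole group. In stimulated over resting nTreg cells, averaged over the genotypes, 37 of 38 members rose and 0 fell at an adjusted p under 0.05 in edgeR's quasi-likelihood test, against 24.1% of 12848 genes that rose and 22.3% that fell. The median fold was 3.23 (log2 1.69, from 0.38 to 2.43), where the median over all genes tested was -0.00 on the log2 scale. In iTreg over resting nTreg cells, 36 of 38 rose and 0 fell, against 23.9% of all genes that rose and 23.8% that fell, with a median fold of 2.36 (log2 1.24). This count was 23 without the KO resting library, and between 32 and 38 of the members rose with stimulation when any 1 library was left out. No share of all genes was counted for fits with a library left out. With 1 library per genotype and state, the error in these tests is departure from equal genotype differences in all states. It is not spread between replicates. The iTreg cells came from naive T cells, so state and cell of origin cannot be told apart. In iTreg over stimulated nTreg cells, 0 members rose and 4 fell, against 6.81% of all genes that rose and 7.62% that fell, and the median log2 fold was -0.40. That count of 4 ranged from 0, without the KO stimulated library, to 6, and was 0 with genotype left out of the model.

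No member passed the test of a genotype effect shared by the 3 states. With cell state in the model, 0 of 38 members rose and 0 fell in KO over WT by edgeR, against 0.109% and 0.0623% of all genes, and DESeq2 also called 0. At an unadjusted p under 0.05 there were 0 members, against 7.93% of all genes. The median log2 fold was -0.03, from -0.41 (Utp20) to 0.30 (Nop10). Mlxip, the targeted gene, did not pass this test either (log2 -0.82, edgeR adjusted p = 0.240). Txnip did (log2 -2.15, edgeR adjusted p = 0.00171). A difference that turns round between states counts as error in that model, and the pairs within each state did turn round. With 1 library per genotype in a state those pairs have no replicate check and no test. Their log2 folds are given with a 95% Clopper-Pearson interval, which covers counting error only.

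In resting cells 36 of 38 members were lower in KO than in WT, against 49.2% of the 10324 genes with at least 50 counts in the higher library, and the median log2 fold was -0.44 where that of all these genes was 0.01. For 33 members the interval lay below 0, and the share of all genes with such an interval was not counted. At least 1.5-fold lower were 9 members, against 4.71% of all such genes, and 0 were at least 1.5-fold higher, against 4.61%. The 2 members higher in KO compare with 50.8% of these genes. In stimulated cells all 38 members were higher in KO, against 55.9% of 10142 genes, and 0 were lower, against 44.1%. Their log2 folds ran from 0.09 to 0.37 with a median of 0.20, against 0.03 over all these genes. The interval lay above 0 for 35 members, again with no share over all genes counted, and deep counts narrow it. At least 1.5-fold higher were 0 and 1.5-fold lower 0, against 1.58% and 2.06% of these genes. In iTreg cells the group was mixed, with 22 members higher and 16 lower in KO, against 54.3% and 45.7% of 10214 genes. The pattern of a lower resting and a higher stimulated level in KO was found in 36 of 38 members and in 28% of 9646 genes. Nop10 and Ubtf were the exceptions, and both were higher in KO in all 3 states, as were 19.8% of 9394 genes with enough counts in each. Of the 36, 20 were also higher in KO iTreg cells, a sequence of signs that 14.8% of genes had, and 16 were lower there, which 13.7% had. Lower in KO in all 3 states were 0 members, against 14.3% of genes. Beside the resting values, the summed B cell markers were 214 CPM in KO and 125 CPM in WT, the 3 erythroid markers 9.42 CPM in KO and 63.1 CPM in WT, and the 7 Treg markers 3506 CPM in KO and 4292 CPM in WT. Their part in these folds was not tested.

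**Figure D2:**
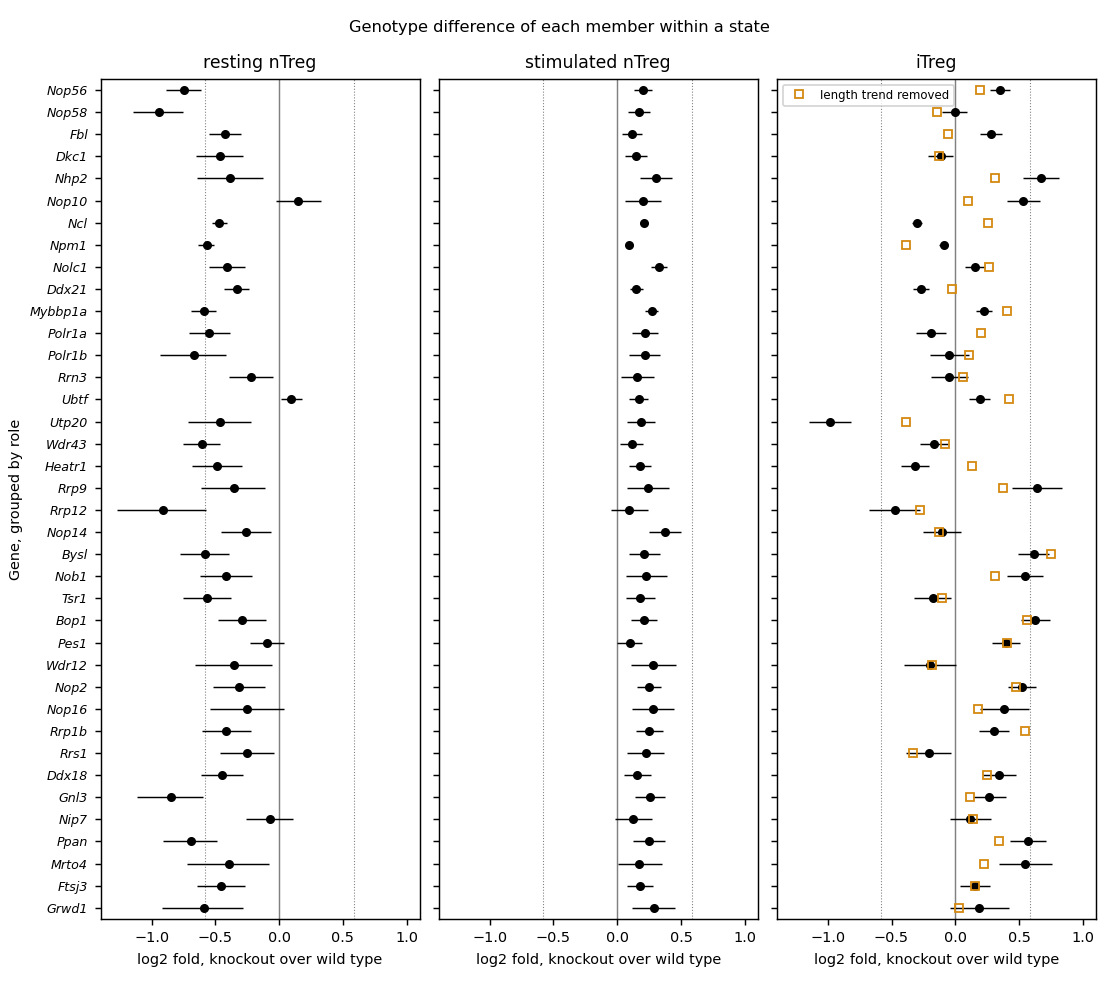
KO over WT log2 fold of each member in resting nTreg, stimulated nTreg and iTreg cells (points, with 95% counting intervals; dotted lines at 1.5-fold); open squares in the iTreg panel are folds after removal of the trend with transcript length. Points lie left of 0 for 36 of 38 members in resting cells and right of 0 for all 38 in stimulated cells.

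Nop56, Nop58 and Fbl are among the core proteins of the box C/D snoRNPs, in which fibrillarin (Fbl) is the enzyme that adds methyl groups to the ribose of rRNA. Nop58 (NCBI gene 55989) had 237 CPM in KO and 211 CPM in WT stimulated cells, against 31.2 CPM in KO and 60.2 CPM in WT resting cells, and 169 and 170 CPM in KO and WT iTreg cells. Its resting level in KO was the lowest of the 6 values and its resting log2 fold of -0.94 (-1.15 to -0.75) was the lowest of all 38, while the iTreg libraries differed by less than counting error. Nop56 had 68.0 CPM in KO and 115 CPM in WT resting cells, 372 CPM in KO and 324 CPM in WT stimulated cells, and 323 CPM in KO and 253 CPM in WT iTreg cells. It was 1.5-fold or more lower in KO at rest (log2 -0.75) and higher in KO in the other states. Fbl had 90.7 CPM in KO and 122 CPM in WT resting cells, 268 CPM in KO and 247 CPM in WT stimulated cells, and 232 CPM in KO and 191 CPM in WT iTreg cells. In stimulated over resting cells all 3 rose, from a log2 fold of 1.27 ± 0.22 for Fbl to 2.33 ± 0.27 for Nop58 (SE, adjusted p = 0.00141 and 0.000183 by edgeR). In iTreg over resting cells all 3 rose as well, with Nop58 at a log2 fold of 1.92, the highest of the members.

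Dkc1, Nhp2 and Nop10 are core proteins of the H/ACA snoRNPs, in which dyskerin (Dkc1) converts uridine to pseudouridine. Dkc1 had 41.0 CPM in KO and 56.7 CPM in WT resting cells, 233 CPM in KO and 210 CPM in WT stimulated cells, and 168 CPM in KO and 182 CPM in WT iTreg cells. Nhp2 had 21.0 CPM in KO and 27.5 CPM in WT resting cells, 120 CPM in KO and 97.2 CPM in WT stimulated cells, and 107 CPM in KO and 67.3 CPM in WT iTreg cells. The iTreg log2 fold of Nhp2, 0.67 (0.53 to 0.82), was the highest of the members in that state, and it was 0.31 with the length trend removed. Nop10, the smallest transcript of the group at 738 bases, had 53.6 CPM in KO and 48.3 CPM in WT resting cells, 88.5 CPM in KO and 77.0 CPM in WT stimulated cells, and 120 CPM in KO and 82.5 CPM in WT iTreg cells. It was thus the H/ACA member that was not lower in KO at rest, though its interval (-0.03 to 0.33) held 0. With stimulation Dkc1 and Nhp2 rose by log2 folds of 2.19 and 2.13, and Nop10 rose by 0.69 ± 0.19 (SE, edgeR adjusted p = 0.0146). In iTreg over stimulated cells Nop10 was at a log2 fold of 0.28, which did not pass the test (edgeR adjusted p = 0.354). It was 1 of 3 members with a positive value there, beside Nob1 (0.37) and Bysl (0.01), and none of the 3 passed.

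Ncl, Npm1, Nolc1, Ddx21 and Mybbp1a are abundant nucleolar proteins. Nucleolin (Ncl) and nucleophosmin (Npm1) bind rRNA and assembly intermediates, Nolc1 binds snoRNPs, Ddx21 is an RNA helicase and Mybbp1a is a nucleolar Myb-binding protein. Npm1 had 332 CPM in KO and 492 CPM in WT resting cells, 1801 CPM in KO and 1686 CPM in WT stimulated cells, and 1286 CPM in KO and 1372 CPM in WT iTreg cells. Ncl had 406 CPM in KO and 563 CPM in WT resting cells, 1980 CPM in KO and 1715 CPM in WT stimulated cells, and 942 CPM in KO and 1159 CPM in WT iTreg cells. Both were lower in KO at rest and higher in KO after stimulation. In iTreg cells as counted both were lower in KO, at log2 folds of -0.30 for Ncl and -0.09 for Npm1. With the length trend removed Ncl, deposited at 8257 bases, was at 0.26 and Npm1, deposited at 1396 bases, was at -0.39. Their depth kept the intervals narrow, as for Npm1 in stimulated cells (log2 0.10, 0.06 to 0.13). Mybbp1a had 137 CPM in KO and 207 CPM in WT resting cells, 724 CPM in KO and 601 CPM in WT stimulated cells, and 437 CPM in KO and 374 CPM in WT iTreg cells. Its resting log2 fold of -0.59 (-0.69 to -0.49) passed 1.5-fold. Nolc1 and Ddx21 had resting log2 folds of -0.41 and -0.33 and stimulated log2 folds of 0.33 and 0.15. With stimulation all 5 rose, by log2 folds of 1.75 to 2.29. In iTreg over stimulated cells Ncl fell (log2 -0.82 ± 0.23 SE, edgeR adjusted p = 0.0437), while the other 4 had values of -0.70 to -0.39 that did not pass. Ncl was 1 of 4 members, of 38, that fell there, where 7.62% of all genes fell.

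Polr1a and Polr1b encode the large catalytic subunits of RNA polymerase I, Rrn3 is the initiation factor that brings the polymerase to the promoter, and Ubtf binds along ribosomal DNA. Polr1b had 20.0 CPM in KO and 31.9 CPM in WT resting cells, 119 CPM in KO and 103 CPM in WT stimulated cells, and 71.1 CPM in KO and 73.5 CPM in WT iTreg cells. Polr1a had 52.6 CPM in KO and 76.9 CPM in WT resting cells, 172 CPM in KO and 148 CPM in WT stimulated cells, and 112 CPM in KO and 128 CPM in WT iTreg cells. The subunits were lower in KO at rest, by log2 folds of -0.67 for Polr1b, past 1.5-fold, and -0.55 for Polr1a. Rrn3, with its 2 upstream E-box strings, had 48.7 CPM in KO and 56.8 CPM in WT resting cells, 103 CPM in KO and 92.5 CPM in WT stimulated cells, and 78.0 CPM in KO and 80.6 CPM in WT iTreg cells. Ubtf had 231 CPM in KO and 216 CPM in WT resting cells, 311 CPM in KO and 277 CPM in WT stimulated cells, and 269 CPM in KO and 236 CPM in WT iTreg cells, a span of less than 1.5-fold over the 6 libraries. It was the member with the smallest value in both contrasts against rest, 0.38 ± 0.18 with stimulation and 0.17 ± 0.18 in iTreg cells on the log2 scale (SE, edgeR adjusted p = 0.110 and 0.470), and neither passed. The other 3 rose in both contrasts, with Polr1b at log2 folds of 2.11 and 1.49.

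The 9 small-subunit factors act on the precursor of the small ribosomal subunit. Utp20, Wdr43, Heatr1 and Nop14 belong to its early processome, Rrp9 to the U3 snoRNP within it, and Bysl, Rrp12, Tsr1 and Nob1 to later steps, where Nob1 is the nuclease of the final cut. Utp20 had 23.3 CPM in KO and 32.2 CPM in WT resting cells, 153 CPM in KO and 135 CPM in WT stimulated cells, and 48.2 CPM in KO and 95.3 CPM in WT iTreg cells. Rrp12 (NCBI gene 107094) had 10.5 CPM in KO and 19.8 CPM in WT resting cells, 81.5 CPM in KO and 76.4 CPM in WT stimulated cells, and 36.0 CPM in KO and 49.95 CPM in WT iTreg cells. These 2 rose most of all members with stimulation, by log2 folds of 2.41 ± 0.27 and 2.43 ± 0.26 (SE, edgeR adjusted p = 0.000146 and 9.65e-05). They were also 2 of the 4 members, of 38, that fell in iTreg over stimulated cells, where 7.62% of all genes fell. Utp20 fell by 1.08 and Rrp12 by 0.91 on the log2 scale (edgeR adjusted p = 0.0239 and 0.0343). Utp20 is the longest member, at 8831 bases, and transcripts counted in the KO iTreg library were shorter. With the length trend removed 3 of the 4 still passed, and with genotype left out of the model all 4 fell short. The falls of Utp20 and Rrp12 were larger in KO than in WT. From stimulated to iTreg cells, Utp20 went from 153 to 48.2 CPM in KO and from 135 to 95.3 CPM in WT. Rrp12 went from 81.5 to 36.0 CPM in KO and from 76.4 to 49.95 CPM in WT. At rest Rrp12 was at -0.91 (-1.27 to -0.58) and Wdr43 at -0.61 (-0.75 to -0.46) in KO over WT on the log2 scale, both past 1.5-fold.

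In iTreg cells the small-subunit factors split. Bysl had 37.3 CPM in KO and 55.9 CPM in WT resting cells, 128 CPM in KO and 110 CPM in WT stimulated cells, and 144 CPM in KO and 94.3 CPM in WT iTreg cells. Rrp9 had 23.1 CPM in KO and 29.7 CPM in WT resting cells, 69.2 CPM in KO and 58.5 CPM in WT stimulated cells, and 57.7 CPM in KO and 37.0 CPM in WT iTreg cells. Both were at least 1.5-fold higher in KO iTreg cells as counted (log2 0.61 and 0.64), and Nob1 was at 0.54. Utp20 was at -0.98 (-1.15 to -0.82), the one member at least 1.5-fold lower there. With the length trend removed Bysl was at 0.75, while Rrp9, at 0.38, Nob1, at 0.31, and Utp20, at -0.39, were not past 1.5-fold. Wdr43 had 64.4 CPM in KO and 98.1 CPM in WT resting cells, 214 CPM in KO and 198 CPM in WT stimulated cells, and 136 CPM in KO and 152 CPM in WT iTreg cells. Heatr1, Nop14 and Tsr1 had resting log2 folds of -0.49, -0.26 and -0.56 and stimulated log2 folds of 0.18, 0.37 and 0.18, of which that of Nop14 was the largest among the members. All 9 rose with stimulation, Nob1 least, by 0.74 ± 0.24 on the log2 scale (SE, edgeR adjusted p = 0.0302).

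Pes1, Bop1 and Wdr12 form the PeBoW complex, which is needed to process the rRNA of the large subunit. Bop1 had 42.3 CPM in KO and 51.9 CPM in WT resting cells, 171 CPM in KO and 148 CPM in WT stimulated cells, and 161 CPM in KO and 104 CPM in WT iTreg cells. Pes1 had 85.4 CPM in KO and 91.3 CPM in WT resting cells, 170 CPM in KO and 159 CPM in WT stimulated cells, and 160 CPM in KO and 121 CPM in WT iTreg cells. Wdr12 had 16.1 CPM in KO and 20.6 CPM in WT resting cells, 59.5 CPM in KO and 48.9 CPM in WT stimulated cells, and 38 CPM in KO and 43.5 CPM in WT iTreg cells. The partners of this 1 complex thus differed in iTreg cells, where Bop1 was at a log2 fold of 0.63 (0.51 to 0.74) in KO over WT, past 1.5-fold, and Wdr12 at -0.20 (-0.40 to 0.01). With the length trend removed Bop1 was at 0.56, short of 1.5-fold, and Wdr12 at -0.18. With stimulation all 3 rose, Bop1 by 1.74, Wdr12 by 1.56 and Pes1 by 0.88 on the log2 scale.

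The 11 large-subunit factors include the rRNA methyltransferases Nop2 and Ftsj3, the helicase Ddx18, the GTP-binding protein nucleostemin (Gnl3), the loading factor Rrs1 and the chaperone Grwd1. Gnl3 (NCBI gene 30877) had 18.7 CPM in KO and 33.7 CPM in WT resting cells, 134 CPM in KO and 112 CPM in WT stimulated cells, and 106 CPM in KO and 88.1 CPM in WT iTreg cells. Ppan, an assembly factor of the early large-subunit precursor, had 29.3 CPM in KO and 47.5 CPM in WT resting cells, 117 CPM in KO and 98.2 CPM in WT stimulated cells, and 107 CPM in KO and 72.5 CPM in WT iTreg cells. Grwd1 had 13.6 CPM in KO and 20.6 CPM in WT resting cells, 63.5 CPM in KO and 52.1 CPM in WT stimulated cells, and 34.0 CPM in KO and 29.9 CPM in WT iTreg cells. These were the 3 large-subunit factors at least 1.5-fold lower in KO at rest, with log2 folds of -0.85 for Gnl3, -0.69 for Ppan and -0.59 for Grwd1. The other 8 lay between -0.45 (Ftsj3) and -0.07 (Nip7) at rest, and Nop16 and Nip7 had intervals that held 0.

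Nop2 had 35.0 CPM in KO and 43.5 CPM in WT resting cells, 189 CPM in KO and 159 CPM in WT stimulated cells, and 173 CPM in KO and 121 CPM in WT iTreg cells. Nip7, which acts on a precursor of the large subunit, had 45.9 CPM in KO and 48.3 CPM in WT resting cells, 82.2 CPM in KO and 75.4 CPM in WT stimulated cells, and 66.0 CPM in KO and 60.8 CPM in WT iTreg cells. Rrs1 had 32.7 CPM in KO and 39.0 CPM in WT resting cells, 84.2 CPM in KO and 72.2 CPM in WT stimulated cells, and 49.4 CPM in KO and 57.1 CPM in WT iTreg cells, and it was the large-subunit factor that was lower in KO iTreg cells. All 11 rose with stimulation, from 0.73 for Nip7 to 2.23 for Gnl3 on the log2 scale. In iTreg over resting cells 10 of 11 rose, Gnl3 by 1.90 and Nop2 by 1.88, and Nip7, at 0.42 ± 0.18 (SE, edgeR adjusted p = 0.0783), did not pass. Grwd1 fell by 0.85 on the log2 scale in iTreg over stimulated cells (edgeR adjusted p = 0.0434), where 4 of 38 members and 7.62% of all genes fell.

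The stimulation response of the members was larger in KO throughout. The log2 fold of stimulated over resting cells was larger in KO for all 38 members, against 52.9% of 9646 genes, and at least 1.5-fold larger for 26, against 5.52%. The median response of the members was 2.00 in KO and 1.35 in WT on the log2 scale, and the median difference was 0.65, against 0.02 over all 9646 genes. Nop58 responded 7.56-fold in KO and 3.5-fold in WT, Gnl3 7.10-fold in KO and 3.30-fold in WT, and Rrp12 7.66-fold in KO and 3.83-fold in WT. Nop10 and Ubtf had the smallest differences, 0.05 and 0.07 on the log2 scale. These differences rest on the same 4 libraries as the genotype pairs above, with 1 library each, and were not tested. Scaled by total counts alone, the response was larger in KO for 36 members, and the share of all genes was not counted at that setting.

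**Figure D3:**
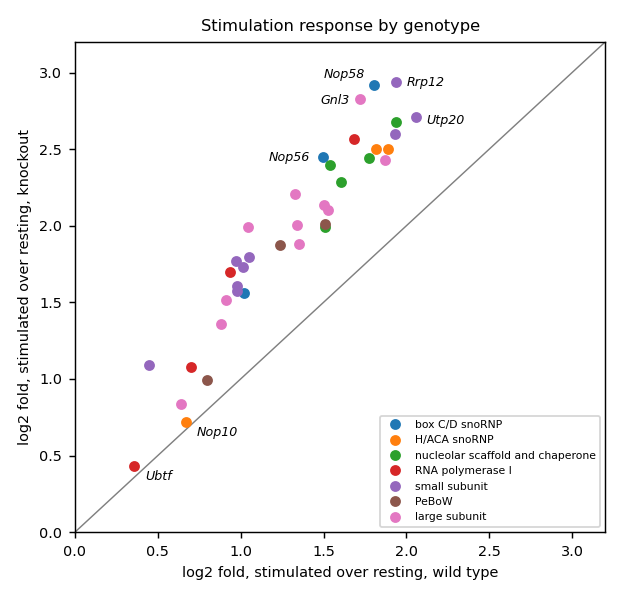
Log2 fold of stimulated over resting nTreg cells for each of the 38 members, KO on the vertical axis and WT on the horizontal axis, coloured by role, with the line of equal response. All points lie above the line; Nop58, Gnl3 and Rrp12 lie farthest from it and Nop10 and Ubtf closest.

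In iTreg cells the genotype folds of the members followed transcript length. Across the 38 genes, which share the same 2 libraries, the log2 fold correlated with log10 length at Pearson r = -0.662 and Spearman rho = -0.637, against r = -0.119 in resting and r = -0.0933 in stimulated cells, and r = -0.471 over 10214 genes in iTreg cells. Of the 13 members under 2000 bases, 11 were higher in KO, with a median log2 fold of 0.39. Of the 15 members of 2000 to 4000 bases, 8 were higher (median 0.12), and of the 10 longer ones 3 were higher (median -0.23). After a loess trend on length was removed from each library, these medians were 0.18, 0.14 and 0.17. At least 1.5-fold higher in KO iTreg cells as counted were 4 members, Nhp2, Rrp9, Bop1 and Bysl, against 13.1% of genes, and 1, Utp20, was at least 1.5-fold lower, against 14.7%. With the trend removed Bysl remained, at a log2 fold of 0.75, with 8.53% of genes past that fold. Utp20 was then at -0.39, so 0 members were at least 1.5-fold lower, against 9.05% of genes, and 26 members were higher and 12 lower, against 55.6% of genes higher. As counted and with the trend removed, the shares of members at least 1.5-fold higher or lower did not exceed the background. With the trend removed, 2 members were higher in KO at rest, against 52.2% of genes, and 38 after stimulation, against 56.9%.

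**Figure D4:**
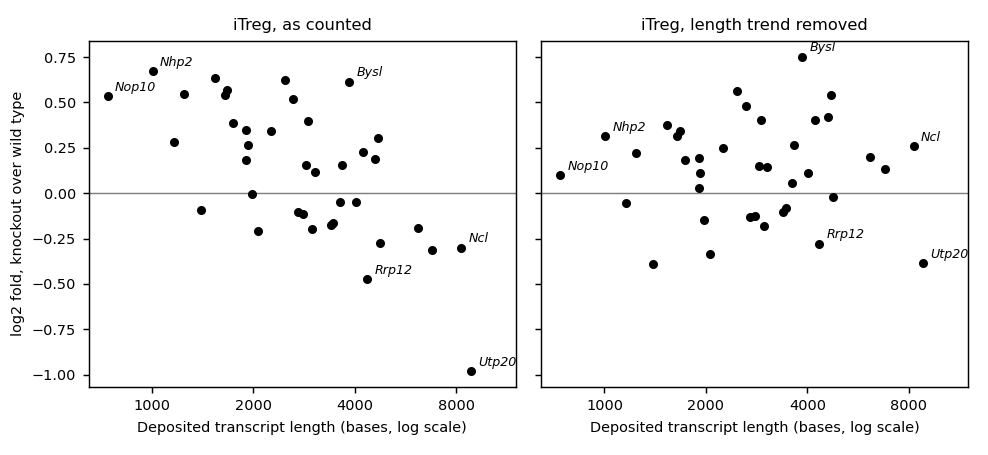
KO over WT log2 fold of the 38 members in iTreg cells against the deposited transcript length (bases, log axis), as counted on the left and after removal of the length trend on the right. On the left, short transcripts such as Nop10 and Nhp2 lie above 0 and the longest, Utp20, lies lowest; on the right the slope is gone and Bysl is highest.

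Myc, the known activator of many of these genes and no member, was read in the same libraries. It had 98.1 CPM in KO and 183 CPM in WT resting cells, 524 CPM in KO and 388 CPM in WT stimulated cells, and 765 CPM in KO and 573 CPM in WT iTreg cells. It was lower in KO at rest (log2 -0.90, -1.01 to -0.79) and higher in KO after stimulation (0.44, 0.37 to 0.50) and in iTreg cells (0.42, 0.37 to 0.47), the same signs as the median member in each state. In stimulated over resting cells Myc rose by 1.69 ± 0.32 and in iTreg over resting cells by 2.25 ± 0.33 on the log2 scale (SE, edgeR adjusted p = 0.00252 and 0.000534), and its shared genotype effect did not pass (adjusted p = 0.996). The order of the states differed, since Myc was highest in iTreg cells and the summed members in stimulated cells. The 8 members with CACGTG in the promoter window had a median resting KO over WT log2 fold of -0.51 and the 25 without it one of -0.41. In stimulated over resting cells the medians were 1.58 with the string and 1.65 without it, and in iTreg over resting cells they were 0.87 with it and 1.24 without it. These differences were not tested.

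**Figure D5:**
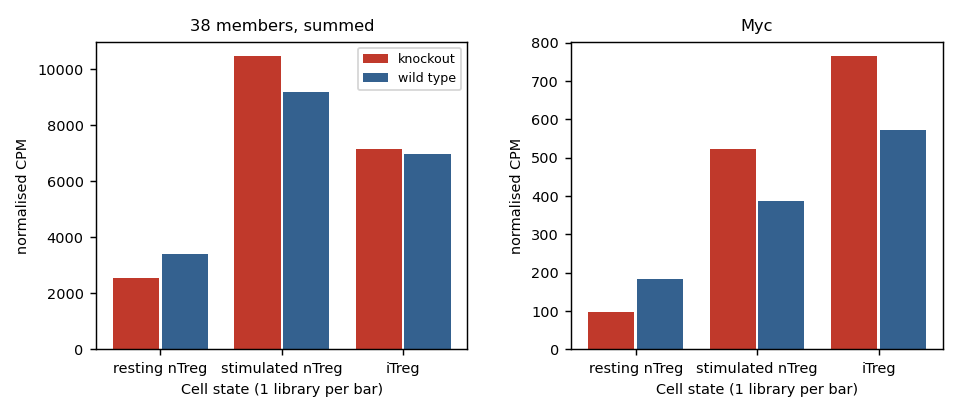
Normalised CPM of the 38 members summed (left) and of Myc (right) in the 6 libraries, KO left of WT in each state, 1 library per bar and no error bars. In both panels the KO bar is lower than the WT bar at rest and higher after stimulation; the members peak in stimulated cells and Myc in iTreg cells.

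Other genes of the pathway, from lists that exclude the 38, were read beside them. Of 51 other small-subunit factors, 35 rose and 0 fell with stimulation by edgeR, where 24.1% of all genes rose and 22.3% fell, among them Lyar (log2 2.70), Nat10 (2.15) and Noc4l (2.15). Of 52 other large-subunit factors, 38 rose, among them Urb2 (2.16), and 1 fell. Of 11 other snoRNP factors 7 rose, among them Gar1 (2.21), the remaining H/ACA core protein, and of 17 other RNA polymerase I subunits and factors 7 rose. Their median log2 folds with stimulation were 0.88, 0.84, 1.30 and 0.39, against 1.69 for the 38 members. In resting cells 41 of the 51 small-subunit and 47 of the 52 large-subunit factors were lower in KO, where 49.2% of all genes were, with medians of -0.19 and -0.23. In stimulated cells 48 and 47 were higher, where 55.9% of all genes were, with medians of 0.19 and 0.15. The other RNA polymerase I genes were split at rest, with 9 of 17 lower in KO. Of 80 ribosomal protein genes, 7 rose and 7 fell with stimulation, against 24.1% and 22.3% of all genes. Their median KO over WT log2 fold was -0.23 at rest, 0.01 over 78 of them after stimulation, and over 79 of them in iTreg cells it was 0.47 as counted and 0.03 with the length trend removed.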

How the data were processed

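RNA was extracted in Trizol and sequenced in 6 libraries, 1 for each of 2 genotypes in 3 states. The authors deposited, per the file headers, an expected count, an FPKM value (scaled to transcript length and library size) and a transcript length for each gene. Bowtie2, HISAT and build mm9 are named, without roles, per the submitters' processing notes. The program that estimated the counts, its annotation and strand use are not given in the sources used here, so reads of overlapping genes and near-identical copies could have been split between them. Of 17759 NCBI gene identifiers, 17711 matched a RefSeq symbol (GRCm38.p6). The 48 others held at most 0.0773% of a library. Of the deposited values, 76.0% were whole within 0.005.

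Expected counts were rounded and fitted over all genes with edgeR 4.0.16 (R 4.3.3), with TMM factors, filterByExpr (minimum 10 counts, total 15), genotype and state as terms and Benjamini-Hochberg adjustment over 12848 genes. Adjusted p under 0.05 counted as passing. This model left 2 residual degrees of freedom. With 1 library per genotype and state, they hold only the departure from equal genotype differences in all states. The p-values and SEs weigh effects against that departure, with information shared over genes. Spread between replicate libraries, technical or biological, was not measured. On simulated data with these means and 1 dispersion the model recovered 73% of 2-fold and 98% of 4-fold shared genotype changes. With stimulation it recovered 55% and 92%, over 12848 genes. It also called 14 unchanged genes for genotype and 7 for stimulation. The simulated genotype changes were equal in all states, so these rates do not cover differences that turn round between states. Genotype pairs within a state, with 1 library each, got no test. Their log2 ratios of CPM used a prior count of 2, and their 95% intervals are exact binomial (Clopper-Pearson) and cover counting error only. Over the members the median half-width was 0.19 in resting, 0.11 in stimulated and 0.12 in iTreg cells on the log2 scale. Members past 1.5-fold needed 50 counts in the higher library. The length trend was a loess (span 0.3) of each library's log2 CPM, minus the gene's mean, on log10 length. Lengths were taken as deposited and were not checked against an annotation.

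Alternatives were DESeq2 1.42.0, limma 3.58.1 on log2(FPKM + 1) and log2(FPKM + 0.1), other size factors, no filter, no covariate, the length trend and each library left out. The 38 members and the other lists were chosen with earlier results of these data known. Each member may be named. Values per library are given for members past a fold or the test in a genotype pair, the extremes of abundance and of each contrast, and the leading members of each role. Mlxip, Txnip, Foxp3, Myc and the top genes of the pathway lists are named besides. The summed marker levels cover 5 of 6 T cell markers (1677 to 3516 CPM), NK cell markers (at most 0.70 CPM) and erythroid markers (63.1 CPM in WT resting cells, at most 9.42 CPM elsewhere), beside those in the report.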

Additional observations from a re-analysis of the deposited data

Results flagged for a closer look

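The genotype difference of the members had opposite signs in different states. The median KO over WT log2 fold was -0.44 in resting cells, 0.20 in stimulated cells and 0.17 in iTreg cells. For 32 of the 38 members the counting interval lay below 0 at rest and above 0 after stimulation, a count with no share over all genes beside it. Myc had log2 folds of -0.90 at rest, 0.44 after stimulation and 0.42 in iTreg cells. Among the members the stimulation response differed most between genotypes for Nop58, by 1.11 on the log2 scale, then for Gnl3, by 1.11, and for Rrp12, by 0.9998, each larger in KO than in WT. The medians, the 32 members and Myc were picked out because the effect in one state ran against that in another. Nop58, Gnl3 and Rrp12 were picked out as the members with the largest difference in response, and all rose with stimulation in both genotypes. With 1 library per genotype and state the difference between states was not tested.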

How the results depend on the processing

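No edgeR call reversed under any alternative. The genotype folds within iTreg cells were less stable, and with the length trend removed 23 of the 38 were counted as moved. Some changed sign, as for Ncl (log2 -0.30 to 0.26), Heatr1 (-0.315 to 0.13) and Fbl (0.28 to -0.05). These shifts rest on the deposited lengths, 8257 bases for Ncl, which were not checked. Counts are of the 38 members, and no share of all genes was counted for fits with a library left out. No paired analysis was possible because each genotype and state has 1 library and the labels give no replicate numbers to block on. The state term already sets KO against WT within each state. With 1 library left out, the median log2 fold of the shared genotype effect ran from -0.16 to 0.19, with 0 calls throughout. Under the same omissions the rise with stimulation held for 32 to 38 members with medians of 1.36 to 2.04, and the iTreg over resting rise for 23 to 36 with medians of 0.96 to 1.52. The lowest of these, 23 and 0.96, came without the KO resting library. In iTreg over stimulated cells, 0 to 6 members fell and 0 to 1 rose (medians -0.56 to -0.25). Instead of 4 lower, median-of-ratios size factors gave 2, limma on log2(FPKM + 1) gave 1 and the model without genotype gave 0. At rest, 9 members at least 1.5-fold lower in KO became 5 on log2(FPKM + 1) and 0 at 2-fold. In iTreg cells, 4 at least 1.5-fold higher became 1 with total counts only, 1 on log2(FPKM + 1), 1 on log2(FPKM + 0.1), 1 with the length trend removed and 0 at 2-fold, and 1 lower became 0 with that trend removed and 0 at 2-fold. The causes were not tested. Depth limits Rrp12, Mrto4 and Grwd1 most, which have the widest counting intervals at rest.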
